A study of Mus musculus with 2 samples.

Results

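Hedgehog signalling was read here as 9 genes, namely the ligand genes Shh, Ihh and Dhh, the receptor-side genes Ptch1, Smo and Gas1, and the transcription factor genes Gli1, Gli2 and Gli3. They were picked by gene symbol as the core of the pathway, with earlier results of these data known, and all 9 were found among the 24354 genes with a deposited FPKM, the fragments of a gene scaled by transcript length and library size. The data are 2 libraries, made with a stranded mRNA kit, of mouse ESCs driven towards mesoderm. The library labelled Diff–CONT came from an ESC line that the paper describes as Ino80 2f/2f, a floxed allele, and that the sample labels call WT. The library labelled Diff–iKO came from a separate Ino80 2f/2f line that also carries ROSA26-CreER, a tamoxifen-activated recombinase expressed from a broadly active locus. Both cultures formed EBs, were then kept for 7 days in serum medium with BMP4 and 0.5 µM 4-OHTM, and so differ in line of origin as well as in CreER and the intended deletion of Ino80. With 1 library per condition, no difference below has a replicate check and no p-value can be given. The steps of the low FPKM values correspond to about 28293893 fragments on genes with the label Diff–CONT and 21915531 with the label Diff–iKO, and intervals below cover counting error only.

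Secreted Hedgehog proteins bind the membrane protein Ptch1, which in the absence of ligand keeps Smo inactive. When ligand binds, Smo accumulates in the primary cilium and the Gli factors change from processed repressors, mainly Gli3, to activators, mainly Gli2, and the activators switch on Gli1 and Ptch1 themselves. In the early embryo Ihh is made by visceral endoderm and Shh by the notochord, floor plate and gut, while mesenchyme is a main responding tissue.

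Before the Hedgehog genes, 2 facts on the libraries bear on every value. Ino80, the targeted gene, had an FPKM of 8.90 in the library labelled Diff–CONT against 10.3 in that labelled Diff–iKO, so the whole-gene level was not lower under the knockout label. An FPKM per gene holds no exon values and cannot show the loss of a floxed exon, so the label could not be checked this way, and directions are therefore given between the libraries as labelled. Xist was 0.0639 and 3.59, and the Y-linked genes Ddx3y (4.07 and 1.89), Eif2s3y (2.80 and 1.10) and Uty (4.14 and 0.664) had lower values. The counting intervals of their log2 ratios were -1.35 to -0.86, -1.91 to -0.84 and -3.06 to -2.26. Each was past the cut-off given below. Each reached its FPKM minimum only in the library labelled Diff–CONT, and so could be counted only as lower. By these values the cultures differed in sex-chromosome expression too. The part of either fact in the values below was not tested.

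The largest change among the 9 genes was in Ihh, which was 5.17-fold lower in the library labelled Diff–iKO. Gas1, a co-receptor gene, was 3.53-fold lower, Gli3 was 2.31-fold lower and Smo was 2.13-fold lower. Gli1, the usual readout gene of the pathway, had nearly equal values, and Shh and Gli2 differed by a small margin. The cut-off took FC ≥ 2 and FPKM ≥ 2 from the study's methods, applied here without a pseudocount and with the FPKM minimum in at least 1 library. It was reached downward by 4 of the 9 genes (Ihh, Gas1, Gli3 and Smo) and upward by 0 of them. Of all 12376 genes that reached the FPKM minimum, 8.39% were past the cut-off downward and 6.73% upward. The median log2 ratio of FPKM + 0.1 over the 9 genes was -0.88, against -0.01 over the 13145 genes whose mean FPKM reached 1. Of the 9 genes, 8 reached the FPKM minimum, and Dhh did not. Ihh reached it only in the library labelled Diff–CONT, where it was higher, so it could enter the count only as a lower gene.

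**Figure D1:**
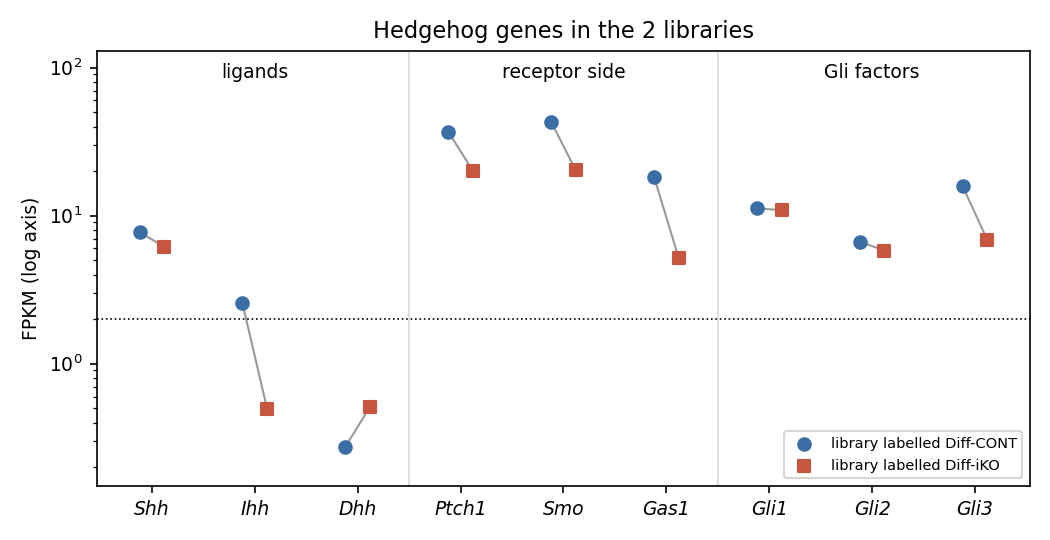
FPKM of the 9 Hedgehog genes on a log axis, with 1 point per library, circles for Diff–CONT and squares for Diff–iKO, and a dotted line at an FPKM of 2. Ihh, Gas1, Gli3 and Smo drop most, Gli1 stays between 10.9 and 11.2, and Dhh lies under the line in both libraries.

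The sequences around the start sites of the 4 genes past the cut-off are shown because these genes were lower together, and they let a reader see what kind of promoter each has. They are 300 bases each, 250 before and 50 after a RefSeq start site, which need not be the outermost start of the gene, and are taken from RefSeq on GRCm38.p6, written 5′ to 3′ on the strand of the gene. RefSeq promoters were found for 7 of the 9 genes, all but Shh and Gli1. Capitals mark the GC box GGGCGG and the CCAAT box CCAAT on either strand. Ihh lies on the minus strand at chr1:74951623-74951922, Gas1 on the minus strand at chr13:60177486-60177785, Gli3 on the plus strand at chr13:15463473-15463772 and Smo on the plus strand at chr6:29735247-29735546. The Gas1 window lies wholly upstream of the Gas1 span given below. That span is from another annotation, which places the start of Gas1 differently.
Ihh: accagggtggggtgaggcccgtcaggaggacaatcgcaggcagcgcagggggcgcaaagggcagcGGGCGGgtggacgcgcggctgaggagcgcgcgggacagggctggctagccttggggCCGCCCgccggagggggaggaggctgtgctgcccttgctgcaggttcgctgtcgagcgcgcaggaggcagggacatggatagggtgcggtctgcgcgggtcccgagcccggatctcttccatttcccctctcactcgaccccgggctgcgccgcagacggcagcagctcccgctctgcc
Gas1: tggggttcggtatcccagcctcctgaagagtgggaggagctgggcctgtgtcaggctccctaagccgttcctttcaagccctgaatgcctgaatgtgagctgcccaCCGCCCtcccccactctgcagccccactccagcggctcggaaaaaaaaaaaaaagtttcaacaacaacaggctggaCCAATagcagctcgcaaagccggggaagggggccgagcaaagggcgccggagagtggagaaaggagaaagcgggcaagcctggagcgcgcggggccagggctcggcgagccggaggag
Gli3: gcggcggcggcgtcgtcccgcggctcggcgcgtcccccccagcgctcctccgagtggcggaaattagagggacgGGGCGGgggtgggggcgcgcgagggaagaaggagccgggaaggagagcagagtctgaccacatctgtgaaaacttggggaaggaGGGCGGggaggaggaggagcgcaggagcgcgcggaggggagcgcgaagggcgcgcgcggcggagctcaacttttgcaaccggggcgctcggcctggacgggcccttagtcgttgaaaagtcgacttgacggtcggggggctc
Smo: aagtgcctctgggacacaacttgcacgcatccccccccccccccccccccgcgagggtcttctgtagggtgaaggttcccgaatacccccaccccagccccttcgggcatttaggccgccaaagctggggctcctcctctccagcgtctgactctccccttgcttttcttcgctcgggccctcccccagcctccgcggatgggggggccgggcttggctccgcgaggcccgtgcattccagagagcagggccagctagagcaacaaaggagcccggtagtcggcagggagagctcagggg

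All 4 windows are rich in G and C, from 62.3% in Gas1 to 72.7% in Ihh, against a median of 52.7% over 32851 RefSeq promoter windows. The observed over expected CpG ratio was 0.504 in Smo, 0.587 in Gas1, 0.774 in Ihh and 1.12 in Gli3, with a median of 0.384 over all windows. The GC box was found in 6 of the 7 Hedgehog windows, all but Smo, and in 35.7% of all windows. The CCAAT box was found in 1 of the 7, Gas1, and in 37.4% of all windows. The TATA box TATAAA was found in 0 of the 7 and in 13.6% of all windows. The Gli motif GACCACCCA, searched on both strands, was found in 0 of the 7 and in 0.253% of all windows, which says only that these letters are not in these windows. The Ptch1 window, from the gene nearest to the cut-off on its other side, had a CpG ratio of 1.09 and 1 GC box.

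Among the ligand genes, Shh was the most abundant in both libraries. Shh, which patterns the neural tube and limb, lies on chromosome 5 from 28456815 to 28467256 of GRCm38 and has 3 exons. It had an FPKM of 7.75 with the label Diff–CONT and of 6.15 with the label Diff–iKO. The log2 ratio was -0.33 with a 95% counting interval of -0.52 to -0.14, so Shh was lower by more than counting error and was not past the cut-off. In the annotation, 28.3% of the Shh exon bases also lie in exons of 9530036O11Rik or Gm26894 on the opposite strand. 9530036O11Rik was listed at an FPKM of 0.0122 and 0.0163.

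Ihh, the ligand gene of visceral endoderm and of growing cartilage, lies on chromosome 1 from 74945315 to 74951672 with 3 exons. It had an FPKM of 2.55 with the label Diff–CONT and of 0.494 with the label Diff–iKO, which corresponds to about 174 and 25 fragments. The log2 ratio was -2.37 with a counting interval of -3.04 to -1.76, and 1.13% of genes at or above the FPKM minimum had a lower ratio. With a pseudocount of 1 the log2 ratio was -1.25, because the lower value is small beside that constant.

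Dhh, the ligand gene of Sertoli and Schwann cells, lies on chromosome 15 from 98891152 to 98898540. It was the only one of the 9 genes with a higher value in the library labelled Diff–iKO, at an FPKM of 0.275 and 0.511. These values rest on about 33 and 46 fragments, and the log2 ratio of 0.89 came with a counting interval of 0.23 to 1.60. Both are under the FPKM minimum, so no call was made. Exons of Rhebl1, a neighbour on the same strand, and of the antisense gene Gm49442 cover 26.1% of the Dhh exon bases. Rhebl1 had an FPKM of 13.8 and 10.7, so the low values of Dhh are uncertain.

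Within the summed FPKM of the ligand genes, which was 10.6 in the library labelled Diff–CONT against 7.15 in that labelled Diff–iKO, Shh took 73.3% and 86.0%. Ihh took 24.1% and 6.90%, and Dhh 2.60% and 7.15%. FPKM is a level per length of transcript, so levels of different genes can be set side by side within a library. By this measure the FPKM of Shh was 3.04 times that of Ihh in the library labelled Diff–CONT against 12.5 times in that labelled Diff–iKO.

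On the receptor side, all 3 genes had lower values in the library labelled Diff–iKO. Ptch1, the receptor gene and itself a target of the pathway, lies on chromosome 13 from 63508328 to 63573598. It had an FPKM of 36.9 with the label Diff–CONT and of 20.1 with the label Diff–iKO, giving a log2 ratio of -0.88 with a counting interval of -0.94 to -0.82. Ptch1 was thus lower by 1.84-fold, more than counting error and short of the cut-off, and was the gene just outside it, with Smo at 2.13-fold just inside. With the libraries scaled to the same FPKM sum the log2 ratio of Ptch1 was -0.97. Its interval was then -1.03 to -0.91 and included the cut-off.

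Smo, the signal transducer gene, lies on chromosome 6 from 29735503 to 29761365 and has 12 exons. It was the most abundant of the 9 genes, with an FPKM of 43.0 in the library labelled Diff–CONT against 20.2 in that labelled Diff–iKO. The log2 ratio of -1.09 came with a counting interval of -1.17 to -1.01, which lies past the cut-off by a narrow margin. With the libraries scaled to the same upper quartile the interval was -1.16 to -0.99 and included it. The intervals of the log2 ratios of Ptch1 and Smo do not overlap, and the FPKM of Ptch1 was 0.857 times that of Smo in the library labelled Diff–CONT against 0.992 times in that labelled Diff–iKO.

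Gas1, a cell surface gene whose product helps Ptch1 bind ligand, is a single-exon gene on chromosome 13 from 60174405 to 60177365. Its level was an FPKM of 18.3 with the label Diff–CONT and of 5.18 with the label Diff–iKO. The log2 ratio was -1.82 with a counting interval of -2.14 to -1.53. The FPKM of Gas1 was 0.496 times that of Ptch1 in the library labelled Diff–CONT against 0.258 times in that labelled Diff–iKO, so Gas1 was lower than Ptch1 by a larger factor. Exons of the lncRNA gene Gm48488 on the opposite strand cover 16.8% of the Gas1 transcript used here.

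The Gli genes did not move together. Gli1, an activator whose transcription is induced by the pathway, lies on chromosome 10 from 127329882 to 127341974. It had an FPKM of 11.2 with the label Diff–CONT and of 10.9 with the label Diff–iKO, and the log2 ratio of -0.04 came with a counting interval of -0.16 to 0.08, which includes 0. With the libraries scaled to the same FPKM sum the log2 ratio of Gli1 was -0.13 and its interval, -0.26 to -0.01, no longer included 0. Exons of Arhgap9 or of the antisense gene Gm47200, both on the opposite strand, cover 8.06% of the Gli1 exon bases. Arhgap9 had an FPKM of 1.37 and 4.42. The strand option of the counting is not given in the sources used here, and a contribution of Arhgap9 reads to Gli1 was not tested.

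Gli2, the main activator before induction, lies on chromosome 1 from 118834132 to 119053619. Its level was an FPKM of 6.68 with the label Diff–CONT and of 5.80 with the label Diff–iKO, giving a log2 ratio of -0.20 with a counting interval of -0.33 to -0.08. Gli3, the main repressor in the absence of ligand, lies on chromosome 13 from 15463235 to 15730026 and has 15 exons. Its FPKM was 15.8 and 6.84 in the same order, a log2 ratio of -1.21 with a counting interval of -1.30 to -1.11. The interval of Gli3 does not overlap that of Gli1 or of Gli2.

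**Figure D2:**
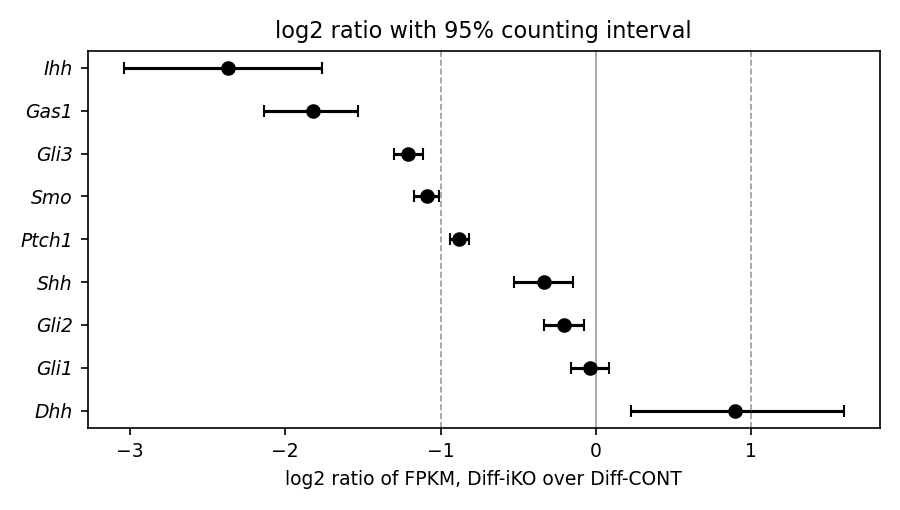
log2 ratio of FPKM in the library labelled Diff–iKO over the library labelled Diff–CONT for the 9 genes, with bars for the exact 95% counting interval and dashed lines at the FC of 2. The intervals of Ihh, Gas1, Gli3 and Smo lie left of -1, that of Ptch1 starts at -0.94, and that of Gli1 includes 0.

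The share of each factor in the summed Gli FPKM shifted accordingly. The sum was 33.7 in the library labelled Diff–CONT against 23.5 in that labelled Diff–iKO. Gli3 made up 46.9% ± 0.647 (counting SE) of it in the library labelled Diff–CONT against 29.1% ± 0.777 in that labelled Diff–iKO. Gli1 made up 33.3% ± 0.691 and 46.3% ± 0.981, so that Gli1 and Gli3 changed places as the most abundant Gli transcript. Gli2 made up 19.8% ± 0.503 and 24.7% ± 0.771. The FPKM of Gli3 was 1.41 times that of Gli1 in the library labelled Diff–CONT against 0.628 times in that labelled Diff–iKO, whereas the ratio of Gli1 to Gli2 was 1.68 and 1.88. These are transcript levels, and the processed and full-length forms of the Gli proteins are not seen in them.

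**Figure D3:**
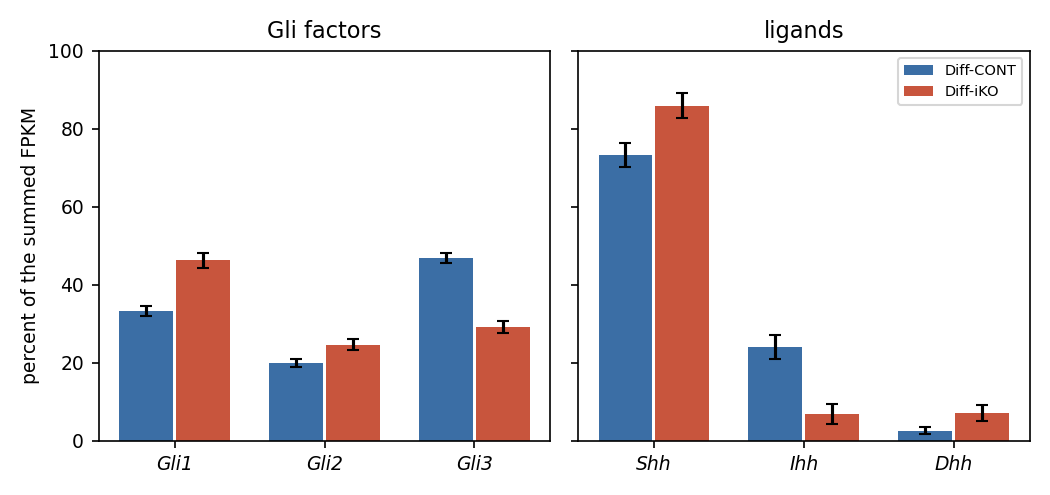
Share of each Gli factor and of each ligand gene in the summed FPKM of its family, in percent, for the libraries labelled Diff–CONT and Diff–iKO, with bars for the 95% counting interval. Gli3 goes from 46.9% to 29.1% while Gli1 goes from 33.3% to 46.3%, and Ihh goes from 24.1% to 6.90% of the ligand sum.

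In the library labelled Diff–CONT the levels ran in the order Smo, Ptch1, Gas1, Gli3, Gli1, Shh, Gli2, Ihh and Dhh, and each gene was above the next by more than counting error. In the library labelled Diff–iKO the order was Smo, Ptch1, Gli1, Gli3, Shh, Gli2, Gas1, Dhh and Ihh. There Smo and Ptch1 did not differ beyond counting error, nor did the neighbours Gli3 and Shh, Shh and Gli2, Gli2 and Gas1, or Dhh and Ihh. Gas1 moved from rank 3 to rank 7, and Gli1 from rank 5 to rank 3. Smo stood at the 89.9th percentile of the genes above 0 in the library labelled Diff–CONT and at the 75.8th in the library labelled Diff–iKO. Gas1 stood at the 73.5th and the 47.9th, and Gli1 at the 61.7th and the 62.0th.

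The genes that make, release and carry the ligands went in both directions. Of 13 such genes, 10 reached the FPKM minimum, and 1 was past the cut-off upward and 2 downward. Of all genes that reached it, 6.73% were past the cut-off upward and 8.39% downward, the shares to set beside each list count. Of the 12 with a mean FPKM of at least 1, 6 had higher and 6 lower values, with a median log2 ratio of 0.06. The median was -0.03 with the libraries scaled to the same FPKM sum. It was 0.24 over genes whose mean FPKM reached 5. The heparan sulfate proteoglycan gene Gpc4 rose from an FPKM of 109.7 to 224.7, a log2 ratio of 1.03 with an interval of 0.99 to 1.07 that includes the cut-off. Its relative Gpc6 fell from 22.1 to 10.04, with an interval of -1.29 to -0.99, and Scube1, of a family of secreted proteins that help release Hedgehog ligands, fell from 8.27 to 2.995. Ext2, of heparan sulfate synthesis, was 55.3 and 82.4, and the sheddase gene Adam10 was 58.5 and 71.4. Disp1, which exports the ligands from the cell, was 9.46 and 9.41.

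Among other genes that bind the ligand at the receiving cell, 1 of the 6 reported here was past the cut-off downward, and the median over the 5 whose mean FPKM reached 1 was -0.49. Gpc3, a glypican gene whose product competes with Ptch1 for ligand, fell from 659.2 to 199.9, a log2 ratio of -1.72. The co-receptor genes Cdon (35.98 and 25.5) and Boc (17.7 and 13.0), which act in parallel with Gas1, had log2 ratios of -0.49 and -0.44 and were not past the cut-off. The FPKM of Boc was 0.966 times that of Gas1 in the library labelled Diff–CONT against 2.51 times in that labelled Diff–iKO. Lrp2, an endocytic receptor gene that also binds Shh, was 29.9 and 20.9. Hhip, which encodes a ligand trap and is a target of the pathway, was 2.30 and 2.04, with a log2 ratio of -0.17 and an interval of -0.36 to 0.01.

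The regulators inside the cell had medians nearer 0. Of 25 cytoplasmic regulators of Smo and Gli, 0 were past the cut-off upward and 1 downward, with a median of -0.32, and 17 of the 25 had lower values, beside 50.7% of all genes whose mean FPKM reached 1. Arrb1, a beta-arrestin gene, fell from an FPKM of 14.2 to 6.47, with an interval of -1.28 to -0.99 that includes the cut-off. The most abundant were Gnas (790.9 and 528.3), the Gs alpha gene, Csnk1a1 (145.6 and 112.5), a casein kinase gene, and Prkar1a (79.2 and 63.2), a regulatory subunit gene of protein kinase A. Sufu, which holds Gli proteins in the cytoplasm, was 13.1 and 8.74, and the ciliary kinesin gene Kif7 was 6.44 and 4.77. Of 15 cilium genes needed for Gli processing, 0 were past the cut-off upward and 2 downward, with a median of -0.27. These were the planar polarity effector genes Intu, from 4.33 to 1.70, which reached the FPKM minimum only in the library labelled Diff–CONT, and Fuz, from 12.5 to 6.22. Fuz lay at the cut-off, with a log2 ratio of -1.004 and an interval of -1.24 to -0.77. The most abundant cilium genes Tulp3 (21.7 and 17.6), Kif3a (16.7 and 15.0) and Tctn1 (11.8 and 15.5) were not past it.

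Among the 24 genes reported here that are known as targets of the pathway in some tissue, 17 reached the FPKM minimum. Of these, 7 were past the cut-off downward, beside 8.39% of all genes that reached the minimum. The median over the 19 whose mean FPKM reached 1 was -0.91, and -0.58 with a pseudocount of 1. Hand2 (9.07 to 1.41), Bmp2 (11.1 to 2.61), Foxf1 (5.42 to 1.37), Bmp4 (43.7 to 12.4), Foxa2 (13.8 to 4.19), Tbx2 (8.55 to 3.91) and Nkx6-1 (2.90 to 1.33) were past it downward. In Nkx6-1 and Tbx2 the counting interval includes the cut-off. Hand2, Foxf1 and Nkx6-1 reached the FPKM minimum only in the library labelled Diff–CONT and, like Ihh, could be counted only as lower. Foxf1 is a mesenchymal forkhead gene, Hand2 a limb and heart gene, and Bmp2 and Bmp4 are ligand genes of the BMP pathway, and each is also driven by inputs other than Hedgehog. Ccnd2 (62.8 and 54.0), a cyclin gene, and Sfrp1 (40.6 and 32.4), a Wnt antagonist gene, were not past the cut-off. Hhip, Gli1 and Ptch1, which report pathway activity in most tissues, were not past it either. Their log2 ratios were unlike, at -0.17, -0.04 and -0.88, and Ptch1 was lower by more than counting error. Of the 7 genes reported here for Zic and Glis factors, zinc finger relatives of the Gli family, 0 were past the cut-off downward, with a median of -0.33 over 6 genes. Glis2 (19.4 and 17.5), Zic2 (17.7 and 14.05) and Zic1 (18.9 and 10.6) were not past the cut-off.

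**Figure D4:**
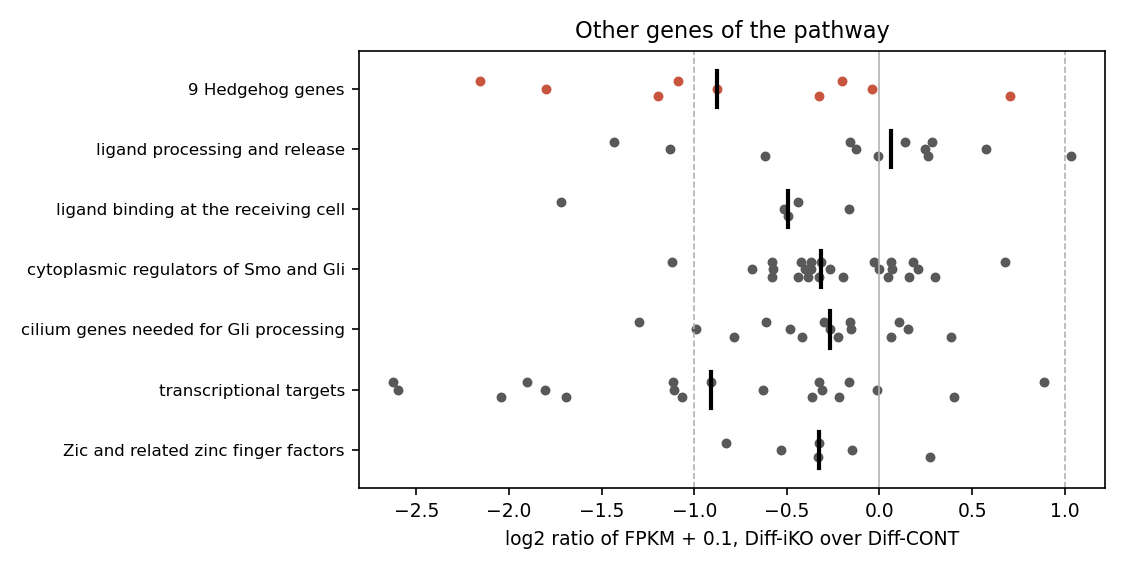
log2 ratio of FPKM + 0.1 for the 9 Hedgehog genes and for the genes reported here of 6 pathway lists whose mean FPKM reached 1, with 1 point per gene, a black bar at each median and dashed lines at the FC of 2. The median is -0.88 for the 9 genes, -0.91 for the targets and 0.06 for ligand processing and release.

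Markers of the cell types that make or receive Hedgehog ligands also differed between the libraries. In bulk RNA, fewer cells of a type and less RNA per cell cannot be told apart. All 10 markers of visceral endoderm, the source of Ihh in the early embryo, were past the cut-off downward, and they summed to an FPKM of 339.7 in the library labelled Diff–CONT against 14.8 in that labelled Diff–iKO. The median log2 ratio was -4.65, and the most abundant markers were Rbp4 (111.3 to 3.05) and Ttr (66.7 to 2.28). Of the 10, 6 reached the FPKM minimum only in the library labelled Diff–CONT and could be counted only as lower. The sum was 23.0-fold lower beside the 5.17-fold of Ihh. Of 8 chondrocyte markers, 3 were past the cut-off downward, among them Col2a1 (89.9 to 21.2), while Col11a1 was 34.6 and 39.2. The summed level was 142.3 and 68.3, and the median was -0.61 over 6 genes and -0.000776 over all detected genes, 4 of the 8 having higher values in the library labelled Diff–iKO. None of the markers in these lists was at 0, and their part in the value of Ihh was not tested.

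For mesenchyme, a responding tissue in which Gas1, Gli3, Smo and Ptch1 are usually expressed, 6 of 10 markers were past the cut-off downward and 0 upward, with a median of -1.02. They summed to an FPKM of 1974 in the library labelled Diff–CONT against 1720 in that labelled Diff–iKO, with Col1a1 at 879.6 and 1199 and Col3a1 at 386.2 and 187.5. None of these 10 was at 0, and their part in the values of Gas1, Gli3 and Smo was not tested. For Shh, 1 of 7 markers of neural progenitors and floor plate was past the cut-off, Foxa2, which is also in the target and visceral endoderm lists. Their summed FPKM was 52.8 and 56.0, with Nes at 28.8 and 44.1. Their median was -0.10 over 5 genes, -0.77 over all detected genes and -0.54 over genes whose mean FPKM reached 5, so it depends on which genes are counted. Of 5 notochord and streak markers, T (7.83 to 1.198) and Eomes were past the cut-off downward, while Chrd (4.88 and 2.77) was not, the sum was 19.0 and 5.53, the median over 3 genes was -1.76, and Noto was listed at 0 in the library labelled Diff–iKO. Of 6 gut epithelium markers, 2 were past the cut-off downward, Cdx2 (3.996 to 0.705) and Vil1 (5.55 to 0.791). The other 4 had higher values without passing it. The most abundant were the broad epithelial keratin genes Krt18 (522.1 and 720.5) and Krt8 (407.4 and 575.5). The sum of the gut epithelium markers was 1184 and 1681, the median was 0.48 and none was at 0. For Dhh, 5 markers of Schwann and Sertoli cells summed to 5.65 and 3.68, with 1 past the cut-off downward and none at 0. The 7 endothelial markers summed to 53.9 and 67.3, with 5 past the cut-off downward, Pecam1 past it upward, a median of -1.42 over 6 genes and none at 0. Among the genes past the cut-off downward, T, Eomes, Cdx2, Vil1, the 1 Schwann and Sertoli marker, 3 of the endothelial markers and 1 of the chondrocyte markers reached the FPKM minimum only in the library labelled Diff–CONT. The part of these lists in the values of Shh and Dhh was not tested.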

How the data were processed

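The authors mapped reads with STAR 2.7.9a on mm10 and deposited FPKM values that Cuffquant and Cuffnorm (Cufflinks 2.2.1) gave, per the labels and the paper's methods. Libraries were made with a stranded mRNA kit. The annotation, the strand option of the counting and the read number are not given in the sources used here, and 0 other columns of values were present. Computed here were the ratio of the 2 libraries per gene without a pseudocount, the cut-off of FC ≥ 2 and FPKM ≥ 2 in at least 1 library, and list medians of log2(FPKM + 0.1) over genes whose mean FPKM reached 1, a scale that understates changes of low genes.

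Depth was recovered because low FPKM values of genes that have 1 RefSeq transcript, 1000 nucleotides or longer, lie on steps of 1 fragment. A length offset and a library scale were fitted to put these values on whole numbers. This gave about 28293893 (Diff–CONT) and 21915531 (Diff–iKO) fragments on genes. After the fit, 87.0% and 86.5% of the values lay within 0.2 of a whole number. Evenly spread values would give 40%, which is not the chance level for a grid fitted to the same values. A multiple of a scale that fits can also fit, and the smallest near-best scale was taken. Intervals are exact (Clopper-Pearson, 95%) on fragments from the shortest RefSeq-linked transcript and cover counting error only. Shares carry a counting SE propagated from the same fragments, and ranks were compared with it.

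The members and lists were chosen with earlier results of these data known. There were 6 pathway lists and 13 marker lists. Of the pathway list genes 2 are not reported here and were left out of their lists, whose upward counts are therefore not given. Hhip is in 2 pathway lists, and Foxa2, Olig2 and Nkx2-2 are in several lists. Named list genes were the 3 with the highest mean FPKM of each pathway list and all past the cut-off, and the 2 most abundant of a marker list set beside a member. Boc, Disp1, Hhip, Sufu, Kif7, Eomes, Noto, Cdx2, Vil1, the genes that overlap a member, and the genes named for lists set beside no member were added after their values were seen. With 2 libraries no gene can be ranked by likeness of pattern. Positions and exon overlaps are from GENCODE vM21 (GRCm38). Between transcripts of the 9 genes no run of 50 nucleotides was shared. Steps were tested on simulated data. Calculations ran in Python 3.11.15 with scipy 1.17.1, pandas 2.3.3 and numpy 2.4.6, and plots in matplotlib 3.10.9. The alternatives were other pseudocounts, FPKM filters, FC minimums, scalings and transcript lengths.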

Additional observations from a re-analysis of the deposited data

How the results depend on the processing

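Downward, the count of Hedgehog genes past the cut-off was between 3 and 5 in 10 of 11 alternatives and was 1, Ihh, at an FC of at least 4. It was 5 with Ptch1 added at an FC of at least 1.5, and 3 without Ihh when FPKM ≥ 2 was asked of both libraries. It was 4 in each of the other 8, and upward the count was 0 in all 11. Over all genes, the counts upward and downward were 833 and 1038 as reported. They were 807 and 1002 with a pseudocount of 0.1, 646 and 712 with a pseudocount of 1, and 488 and 569 with FPKM ≥ 2 in both libraries. With no filter they were 2040 and 2073, at an FC of at least 1.5 1846 and 2177, and at an FC of at least 4 278 and 237. These follow from wider or narrower rules. Scaling to the same FPKM sum, which is not such a rule, gave 702 and 1226. As shares of the genes tested, the downward counts were 17.6% of 12376 at an FC of at least 1.5. They were 1.915% of the same 12376 at an FC of at least 4. With FPKM ≥ 2 in both libraries they were 5.10% of 11161, and with no filter 11.99% of 17289. The upward shares were 14.9%, 2.25%, 4.37% and 11.8% in the same order. The median over the 9 genes was -0.98 without Dhh, whose mean FPKM is under 1, and moved by less than 0.1 in 5 alternatives. Scaling moved log2 ratios by between -0.09 and 0.02 and turned no direction of the 9 genes. A mean FPKM of at least 5 turned the trophoblast median to -1.18, and counting all detected genes turned that of Schwann and Sertoli markers to 0.00736, in both cases because other genes are counted. The chondrocyte median moved to -0.000776 with all detected genes and to -0.95 over genes whose mean FPKM reached 5. No paired analysis was possible because each group holds 1 library, and no library could be left out. Depth limits Ihh and Dhh most, with 25 and 46 fragments in the library labelled Diff–iKO.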

Other observations

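Markers of cell types not set beside a Hedgehog gene above also differed between the libraries. All 5 pluripotency markers had higher values in the library labelled Diff–iKO and 4 were past the cut-off, with a median log2 ratio of 2.05 and a summed FPKM of 133.3 and 453.0. Pou5f1 rose from an FPKM of 60.8 to 247.0, and Sox2 was 42.7 and 68.2. Of 6 trophoblast markers, 3 were past the cut-off upward and 1, Hand1, downward. These 3 reached the FPKM minimum only in the library labelled Diff–iKO and could be counted only as higher. The list summed to 73.6 and 41.9, and its median was 1.85 over 4 genes and 0.20 over all detected genes. Of 6 cardiomyocyte markers, 4 were past it downward, with a median of -2.60 over 5 genes. The most abundant was Tnnt2 (14.7 to 4.17), and 3 of the 4 reached the FPKM minimum only in the library labelled Diff–CONT. Of 7 parietal endoderm markers, 1 was past it downward, with a median of 0.28, and of 4 neuron markers 1 was past it downward, with a median of -0.72. The 5 markers of Schwann and Sertoli cells had a median of -1.14 over the 2 genes whose mean FPKM reached 1.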
